A study of Mus musculus with 12 samples.

Results

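The mRNAs of 8 transcription factors that set or oppose the epithelial state were followed through 12 tumoursphere libraries of mouse mammary cancer cells. The genes were chosen by name, with earlier results of these data known. The 6 inducers of epithelial-mesenchymal transition (EMT) were Snai1, Snai2, Twist1, Twist2, Zeb1 and Zeb2, and the 2 epithelial regulators were Elf3 and Grhl2. All 8 were among the 18278 genes of the count files. Tumourspheres are clusters that grow from single cells in plates to which cells do not attach.

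The lines LM1 and LM9 and their KO counterparts, LM1 Nfib KO and LM9 Nfib KO, made up 4 groups of 3 libraries. Both lines come from lung metastases in NOD/SCID mice, and both descend from a mammary tumour cell line that carried an activated PIK3CA transgene under the CAG promoter and had undergone piggyBac transposon mutagenesis. The KO cells were made from each line by CRISPR-Cas9 targeting of Nfib, which encodes the transcription factor NFIB, and each KO group was a small pool of single-cell clones. All groups therefore share the transgene and the mutagenesis, and all were grown without serum in medium with B27, EGF and basic FGF. The study's methods give technical triplicates for tumoursphere measurements, and they do not say whether the 3 libraries of a group are such triplicates or came from separate cultures. The p-values therefore measure the spread between libraries, which may be technical.

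EMT is a change in which epithelial cells give up junctions and polarity and gain migratory, mesenchymal features. SNAIL (Snai1) and SLUG (Snai2) are zinc-finger repressors that bind E-box motifs, among others in the E-cadherin promoter. ZEB1 and ZEB2 are repressors with paired zinc-finger clusters that bind the same motifs and are held down by the miR-200 family. TWIST1 and TWIST2 are basic helix-loop-helix proteins that act as dimers with E proteins. On the other side, GRHL2 is a grainyhead factor that activates junction genes and opposes ZEB1, and ELF3 is an ETS factor of differentiated epithelia.

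The genes lie apart in the genome (mm10, 1-based). Snai1 (ENSMUSG00000042821) and Zeb2 (ENSMUSG00000026872) are on chromosome 2, at 167538195 to 167542814 and at 44983632 to 45117395. Twist2 (ENSMUSG00000007805) and Elf3 (ENSMUSG00000003051) are on chromosome 1, at 91801461 to 91848028 and at 135253575 to 135258568. Snai2 (ENSMUSG00000022676) is on chromosome 16 at 14705852 to 14709385, Twist1 (ENSMUSG00000035799) on chromosome 12 at 33957671 to 33959829 and Grhl2 (ENSMUSG00000022286) on chromosome 15 at 37233036 to 37363569. Reads were counted over all annotated exons of a gene. Exons of 5 of the 8 overlap a gene on the opposite strand, over 46.53% of exon bases in Twist2, 7.31% in Elf3 and 1.93% to 3.27% in Zeb1, Zeb2 and Grhl2. Whether the counting used strand is not stated, so the Twist2 values in particular are uncertain.

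Promoter windows are shown because SNAIL, SLUG and ZEB proteins bind the E-box CAGGTG, which reads CACCTG on the other strand, and because members that fell and members that rose could be set side by side. The RefSeq promoter table (GRCm38.p6) held windows for 5 of the 8 members, each with 250 bases before and 50 bases after a transcription start. Both strands were searched for CAGGTG, and capitals mark a match. The windows of Snai1 and Elf3, both of which were lower in the libraries labelled KO, are followed by the windows of Twist1 and Twist2, both of which were higher there.
Snai1, chr2:167537945-167538244, plus strand: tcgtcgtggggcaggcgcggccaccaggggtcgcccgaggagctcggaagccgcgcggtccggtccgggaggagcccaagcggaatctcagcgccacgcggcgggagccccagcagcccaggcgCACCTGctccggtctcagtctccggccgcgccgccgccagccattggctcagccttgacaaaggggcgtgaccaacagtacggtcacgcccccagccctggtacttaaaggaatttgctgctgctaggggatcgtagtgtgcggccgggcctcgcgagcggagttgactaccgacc
Elf3, chr1:135258423-135258722, minus strand: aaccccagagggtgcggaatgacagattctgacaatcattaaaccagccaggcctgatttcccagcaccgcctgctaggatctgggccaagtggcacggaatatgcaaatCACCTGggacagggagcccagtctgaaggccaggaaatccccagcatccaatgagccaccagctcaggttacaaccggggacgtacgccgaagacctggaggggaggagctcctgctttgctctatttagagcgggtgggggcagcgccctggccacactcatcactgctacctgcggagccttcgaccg
Twist1, chr12:33957421-33957720, plus strand: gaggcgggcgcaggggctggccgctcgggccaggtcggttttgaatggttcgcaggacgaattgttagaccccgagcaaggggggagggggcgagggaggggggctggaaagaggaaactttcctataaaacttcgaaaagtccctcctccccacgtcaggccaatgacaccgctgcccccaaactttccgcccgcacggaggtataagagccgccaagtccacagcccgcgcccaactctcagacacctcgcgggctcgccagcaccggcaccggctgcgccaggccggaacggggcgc
Twist2, chr1:91801211-91801510, plus strand: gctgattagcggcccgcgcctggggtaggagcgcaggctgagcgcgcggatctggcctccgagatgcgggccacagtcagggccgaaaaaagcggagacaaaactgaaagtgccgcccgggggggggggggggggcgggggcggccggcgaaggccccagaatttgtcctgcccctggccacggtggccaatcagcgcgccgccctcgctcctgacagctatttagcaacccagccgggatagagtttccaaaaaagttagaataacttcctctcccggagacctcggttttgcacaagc
The Snai1 window held 1 match, which begins 126 bases before the start, and the Elf3 window held 1, which begins 140 bases before the start. None was found in the windows of Twist1, Twist2 or the 4 starts of Zeb2. Of all 32851 promoter windows of this length, 20.2% held the motif. These matches are descriptions of the sequence and no binding was measured here.

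Several facts about the libraries touch every result below. Totals ran from 29249075 to 37162594 counts. Nfib was not lower in the libraries labelled KO. It was at 195.6, 217 and 241 CPM in LM1 and 239, 238 and 228 CPM in LM1 Nfib KO (counts-per-million scaled by TMM factors). It was at 210.3, 119.6 and 134 CPM in LM9 and 227, 247 and 246 CPM in LM9 Nfib KO. The mRNA thus did not separate the groups in the direction of their labels. Nfib passed as higher in LM9 Nfib KO, with a log2 fold change of 0.68 (adjusted p = 0.0026 by limma-voom). In LM1 Nfib KO it did not pass (0.11). The protein was not measured here, though the study's methods say that the single-cell clones were screened by immunoblotting. These libraries are called by their label. LM9 replicate 1 stood apart from its group: its correlation (Pearson r of log2 CPM across genes) was 0.992 with each LM1 library but 0.964 and 0.966 with LM9 replicates 2 and 3. The LM1 libraries correlated with each other at 0.991 to 0.992, so LM9 replicate 1 was as near to them as they were to each other. The 6 libraries labelled KO were alike, with r of 0.993 to 0.994 and no gene of 18176 past the threshold between the 2 pools. Against these, the median absolute log2 difference from the line was 1.16 over all genes in LM1 and 1.24 in LM9.

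Markers of cell types also moved with the KO label. The summed level of 7 mammary epithelial markers (of 8 listed) was 756 to 803 CPM in LM1 and 804 to 1328 CPM in LM9, against 7.25 to 8.23 CPM in the libraries labelled KO. There Cdh1 was at or under 3 counts in every library, and Krt8, Krt18 and Epcam were each under 1 CPM on average. In the limma-voom test 6 of the 7 were lower and 1 higher in LM1 Nfib KO, and 5 lower and 1 higher in LM9 Nfib KO. Of all genes tested, 43.1% were higher and 38.1% lower in LM1 Nfib KO, and 44.3% and 38% in LM9 Nfib KO, and marker counts are to be read beside these shares. Markers with next to no reads in the lines or under the KO label entered the test through the other libraries. The higher one was Krt14, a keratin of basal epithelial cells, which had at most 8 counts in a library of the lines and went from 0.0584 and 0.145 CPM in LM1 and LM9 to 6.79 and 6.51 CPM, and so made up most of the sum under the KO label. The 7 of 8 fibroblast markers in the files summed to 174 to 311 CPM in the lines and 1309 to 1402 CPM in the libraries labelled KO, where Col1a1 made up most of the sum with group means of 958 and 899 CPM. Of these, 6 were higher and 1 lower in LM1 Nfib KO, and 6 higher and 0 lower in LM9 Nfib KO, where Col1a2, Col3a1 and Lum had at most 11 counts in any library of the lines. Dcn, the matrix proteoglycan decorin, went down from 90.7 to 11.5 CPM in LM1 (limma-voom adjusted p = 0.000162), and was at 38.4 ± 39.9 CPM in LM9 and 12.4 CPM in LM9 Nfib KO (limma-voom adjusted p = 0.0576). Dcn was at 84.4 CPM in LM9 replicate 1 and at 15.7 and 15.1 CPM in replicates 2 and 3. Without replicate 1 its log2 difference went from -1.18 to -0.32 and passed (adjusted p = 0.00114 by limma-voom), which makes the LM9 count 6 higher and 1 lower. The 3 of 6 endothelial markers in the files summed to 0.202 to 1.33 CPM in the lines and 350.5 to 358.5 CPM under the KO label, where Kdr was at 282 and 284 CPM and Cdh5 at 73.3 and 69.5 CPM on average. Pecam1 did not go with them. It had group means of 0.314 and 0.880 CPM in LM1 and LM9 and of 0.433 and 0.332 CPM under the KO label, and without LM9 replicate 1 it was lower in LM9 Nfib KO, with a log2 difference of -1.89 (adjusted p = 1.66e-05 by limma-voom; 0.205 with all libraries). The 2 of 6 blood cell markers in the files went opposite ways: Cd68 had group means of 459 and 523 CPM in LM1 and LM9 but 101 and 98.7 CPM under the KO label, whereas Csf1r had group means of at most 0.0112 CPM in the lines and of 12.3 and 12.4 CPM under the KO label. The part of other cell types in the results was not tested, and in these bulk libraries fewer cells of a type and less RNA per cell cannot be told apart.

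**Figure D1:**
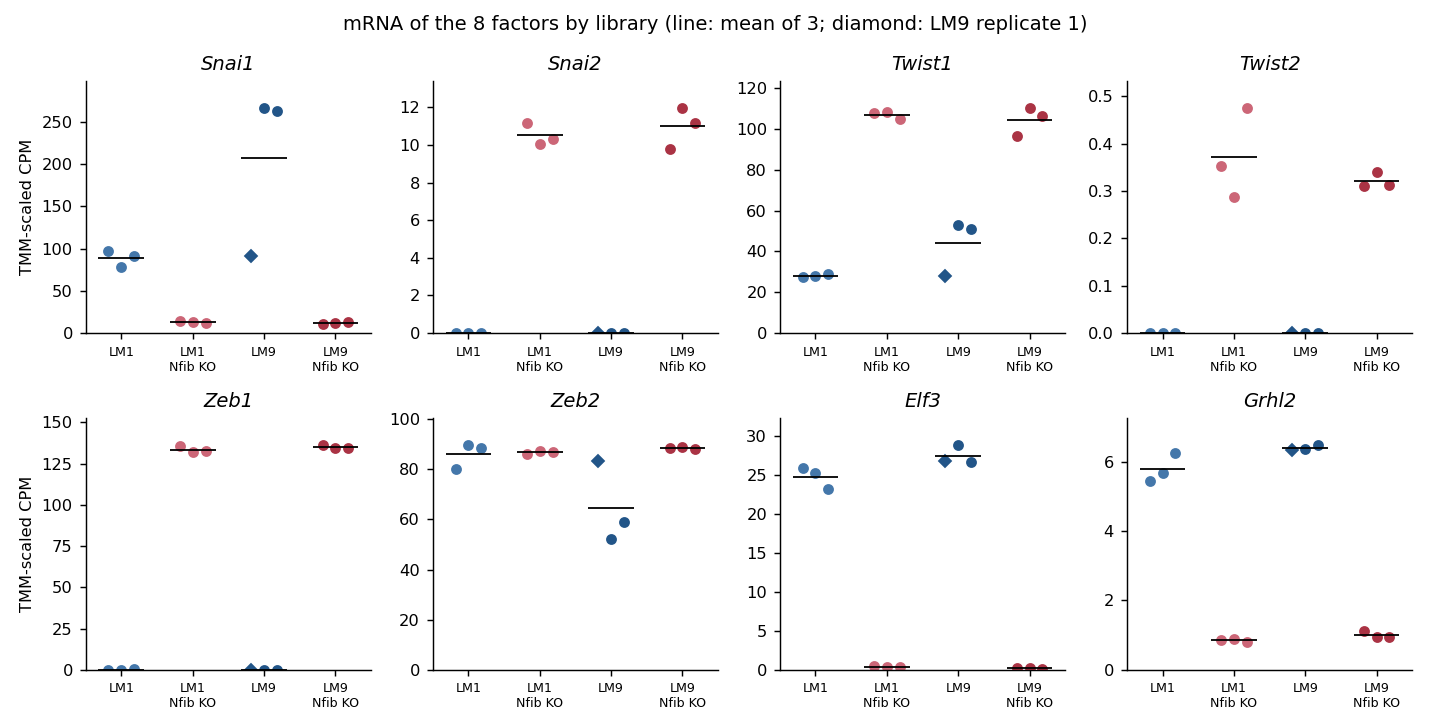
Level of each of the 8 factors in the 12 libraries, in TMM-scaled CPM on a linear axis from 0 that differs between panels. Points are libraries, black lines are means of 3, and the diamond is LM9 replicate 1, which lies with LM1 in Snai1, Twist1 and Zeb2. Snai1 is high in the lines and low under the KO label, while Twist1 and Zeb1 are the other way round.

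Each KO comparison set the libraries labelled KO against their lung-metastatic line, to ask how the loss of NFIB changes it. That loss could not be checked here. In both lines the inducers split: Snai1 fell in the libraries labelled KO, while Zeb1, Snai2, Twist1 and Twist2 rose. Both epithelial regulators fell, so Elf3 and Grhl2 moved with the inducer Snai1 and against Zeb1, Snai2, Twist1 and Twist2. Zeb2 rose in LM9 but did not pass the test in LM1. By limma-voom, 4 of 8 members were higher and 3 were lower in LM1 Nfib KO, where 43.1% of all 18176 genes tested were higher and 38.1% lower. In LM9 Nfib KO 5 were higher and 3 lower, against 44.3% and 38% of all genes. These shares are near the background, so the number of members called says nothing particular about them, and the values below describe how far and in which direction each one went. All 8 members entered the test, but Zeb1, Snai2 and Twist2 met the filter on low counts only through the libraries labelled KO. These 3 had to differ once they were tested, so their passing is a description and their counts are what is given below. Of the other 5 members, 1 was higher and 3 lower in LM1 Nfib KO, and 2 were higher and 3 lower in LM9 Nfib KO.

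Snai1, whose protein represses the E-cadherin gene, was at 96.6, 78.7 and 90.9 CPM in LM1 and at 14.1, 12.9 and 12.4 CPM in LM1 Nfib KO. In LM9 it was at 91.2, 266 and 263 CPM, and in LM9 Nfib KO at 11.2, 12.2 and 13.2 CPM. Every library labelled KO lay far under every library of the lines. Of all genes tested, 42.3% in LM1 and 37.1% in LM9 were lower with no overlap between line and KO label, and 46.8% and 43.4% were higher. LM9 replicate 1 lay among the LM1 libraries in Snai1. By limma-voom the change on the log2 scale was -2.75 (SE 0.39; adjusted p = 4.43e-05) in LM1 and -3.92 (SE 0.39; adjusted p = 1.94e-06) in LM9. Without LM9 replicate 1 the LM9 value was -4.43 (SE 0.08).

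Snai2, whose protein SLUG is related to SNAIL, went the opposite way. It had 0 counts in each of the 6 LM1 and LM9 libraries. Under the KO label it was at 11.2, 10.03 and 10.3 CPM in LM1 Nfib KO and at 9.80, 11.97 and 11.2 CPM in LM9 Nfib KO. Set against a floor of 3 counts over the 3 libraries of a line, Snai2 was at least 311-fold higher in LM1 Nfib KO and at least 293-fold higher in LM9 Nfib KO. Without LM9 replicate 1 the floor in LM9 was 0.0597 in place of 0.0376 CPM, which lowers every bound against LM9 in that proportion, to 184-fold for Snai2. The SNAIL family members exchanged places only in part. Per kb of exon, Snai1 under the KO label was at 8.09 ± 0.551 and 7.53 ± 0.602 CPM, still above Snai2 at 5.21 ± 0.300 and 5.44 ± 0.544 CPM (SD, n = 3).

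Twist1 was present in all libraries. It was at 27.5, 27.9 and 29.1 CPM in LM1 and at 108, 108 and 105 CPM in LM1 Nfib KO. In LM9 it was at 28.0, 53.1 and 51.1 CPM, and in LM9 Nfib KO at 96.6, 110.3 and 106 CPM. The groups did not overlap in either line, and LM9 replicate 1 was again at the level of LM1. By limma-voom the change on the log2 scale was 1.93 (SE 0.19; adjusted p = 1.63e-06) in LM1 and 1.31 (SE 0.18; adjusted p = 3.43e-05) in LM9, or 1.00 (SE 0.06) without LM9 replicate 1.

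Twist2, its close relative, had 0 counts in all LM1 and LM9 libraries and 11 to 18 counts in each library labelled KO. Its level there was low, 0.372 ± 0.0955 CPM in LM1 Nfib KO and 0.321 ± 0.0168 CPM in LM9 Nfib KO (SD, n = 3). Against the same floor, this was at least 10.9-fold above LM1 and at least 8.56-fold above LM9, or 5.38-fold without LM9 replicate 1. Per kb of exon, Twist1 stood at 65.8 and 64.1 CPM in these libraries and Twist2 at 0.117 and 0.101 CPM.

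Zeb1 (ENSMUSG00000024238, chromosome 18 at 5591860 to 5775467) went from next to no reads to a high level. It had 1, 4 and 4 counts in LM1 and 2, 0 and 0 counts in LM9. It was at 136, 132 and 133 CPM in LM1 Nfib KO and at 137, 135 and 135 CPM in LM9 Nfib KO. The ratio of the pooled counts, scaled for library size, was 1313 in LM1 (exact 95% interval 692 to 2873, counting error only) and 5404 in LM9 (1496 to 44628). Both LM9 reads were in replicate 1, and without it Zeb1 was at least 2266-fold higher in LM9 Nfib KO, against a floor of 3 counts over the other LM9 libraries. The fitted log2 fold change went from 12.04 to 12.73 without that library.

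Zeb2 behaved unlike Zeb1. It was at 80.2, 89.8 and 88.6 CPM in LM1 and at 86.1, 87.4 and 86.9 CPM in LM1 Nfib KO, so that the KO values lay inside the range of the line. The log2 fold change was 0.01 with a 95% interval of -0.27 to 0.29 (two-sided exact permutation p = 1; adjusted p = 0.944 by limma-voom). In LM9 it was at 83.3, 52.1 and 58.8 CPM, and in LM9 Nfib KO at 88.5, 88.9 and 88.3 CPM. All KO values lay above all LM9 values, LM9 replicate 1 being the nearest to them. The log2 fold change in LM9 was 0.48 (SE 0.13; limma-voom adjusted p = 0.00546), and 0.68 (SE 0.05) without LM9 replicate 1. An exact permutation test of 3 libraries against 3 cannot give a p under 0.1, and it gave 0.1 for this and for every other KO comparison of a member apart from Zeb2 in LM1.

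Elf3, which is expressed in epithelia of many organs, showed the largest fall among the 8. It was at 25.9, 25.3 and 23.1 CPM in LM1 and at 0.428, 0.314 and 0.291 CPM in LM1 Nfib KO. In LM9 it was at 26.8, 28.9 and 26.7 CPM, and in LM9 Nfib KO at 0.181, 0.243 and 0.156 CPM. The libraries labelled KO held 6 to 17 Elf3 counts each, against 640 to 824 in the lines. By limma-voom the change on the log2 scale was -6.13 (SE 0.19; adjusted p = 1.1e-10) in LM1 and -7.07 (SE 0.21; adjusted p = 1.01e-10) in LM9, and -7.08 (SE 0.28) without LM9 replicate 1.

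Grhl2 was per kb of exon less abundant than Elf3, at 0.673 against 11.2 CPM per kb in LM1. It was at 5.46, 5.67 and 6.25 CPM in LM1 and at 0.856, 0.888 and 0.793 CPM in LM1 Nfib KO. In LM9 it was at 6.34, 6.37 and 6.49 CPM, and in LM9 Nfib KO at 1.11, 0.949 and 0.936 CPM. No library of a line came near a library labelled KO. LM9 replicate 1 lay close to the other LM9 libraries, but also to the highest LM1 library, so Grhl2 does not place it. By limma-voom the change on the log2 scale was -2.76 (SE 0.13; adjusted p = 3.83e-09) in LM1 and -2.67 (SE 0.13; adjusted p = 3.57e-09) in LM9, with -2.67 (SE 0.15) without LM9 replicate 1. Grhl2 thus kept 30 to 43 counts per library under the KO label.

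**Figure D2:**
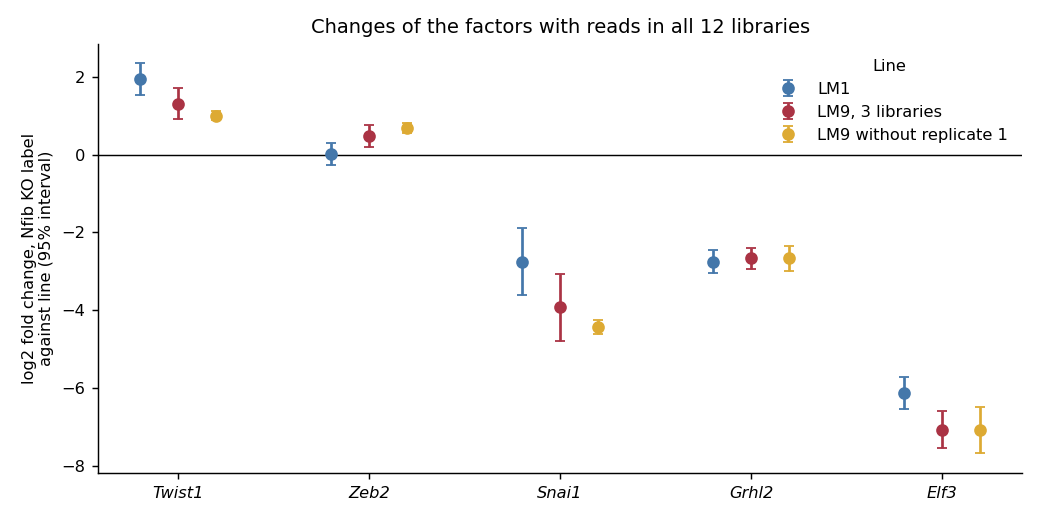
Log2 fold change (Nfib KO label against line, limma-voom) of the 5 factors with more than 4 reads in every library, with 95% intervals. Blue is LM1, red is LM9 with 3 libraries, and yellow is LM9 without replicate 1. Snai1, Grhl2 and Elf3 lie under 0 and Twist1 lies above 0 in every case, while Zeb2 lies at 0.01 in LM1 and at 0.48 or 0.68 in LM9.

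Averaged over both lines, all 8 members passed, 5 higher and 3 lower, with 3 of the 5 tested only through the KO label, where 46.3% of all genes were higher and 40.5% lower. Zeb2 had the smallest averaged change, 0.24 (SE 0.09; limma-voom adjusted p = 0.0263), and it no longer passed without LM1 replicate 1 (0.22), LM9 replicate 2 (0.18) or LM9 replicate 3 (0.22).

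The make-up of the inducer mRNA was compared next, with counts divided by exon length so that genes can be set beside each other. Snai1 led in the lines. It made up 69.2% to 74.0% of the summed counts per kb of the 6 inducers in LM1, and 72.5% in LM9 replicate 1 against 82.4% and 82.5% in the other LM9 libraries. Under the KO label its share was 7.63% to 8.86%. Twist1 took the lead there with 66.7% to 68.8%, against 21.0% to 24.4% in LM1 and 16.0% to 22.2% in LM9. Zeb1 made up 13.3% to 14.96% under the KO label and at most 0.0180% in the lines. Snai2 added 5.13% to 5.99%, Twist2 0.0936% to 0.158% and Zeb2 4.397% to 4.99% under the KO label.

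The ratio of Snai1 to Twist1 within a library, per kb, needs no scaling between libraries. It was 3.53, 2.83 and 3.14 in LM1 and 0.131, 0.119 and 0.118 in LM1 Nfib KO. In LM9 it was 3.27, 5.04 and 5.16, and in LM9 Nfib KO 0.117, 0.111 and 0.125. Snai1 exceeded Twist1 in every library of the lines and in none labelled KO.

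**Figure D3:**
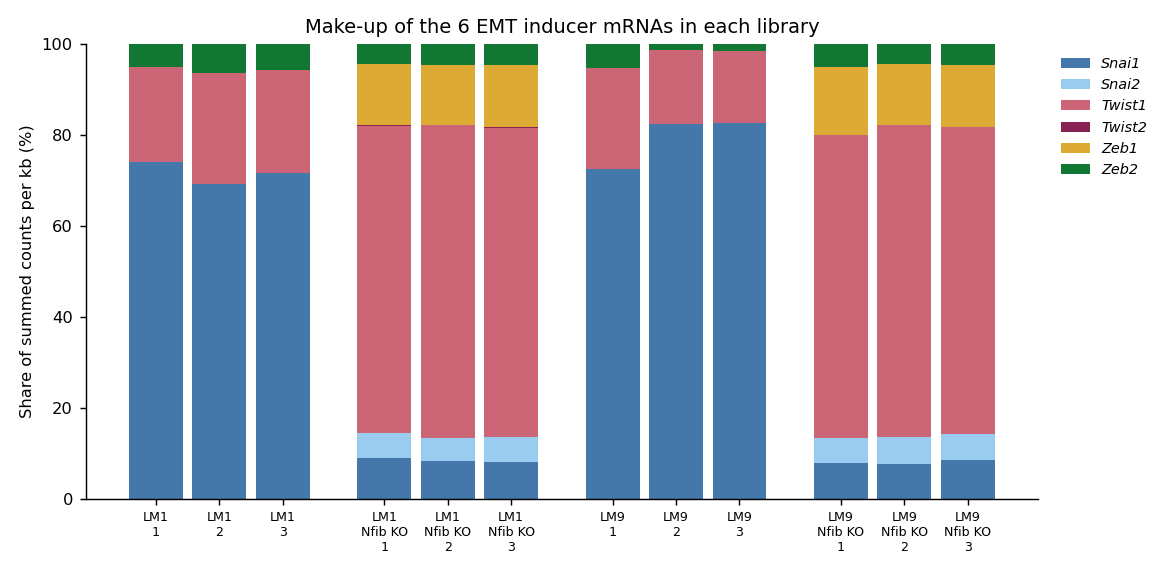
Share of each of the 6 EMT inducers in their summed counts per kb of exon (percent), for each library; bars are stacked. Snai2 and Twist2 are absent from the LM1 and LM9 bars and Zeb1 is at most 0.0180% of them. Snai1 fills 69.2% to 82.5% of the bars of the lines and Twist1 fills 66.7% to 68.8% of the bars labelled KO.

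On the scale of CPM per kb the full order of the 8 in LM1 was Snai1 (54.7), Twist1 (17.3), Elf3 (11.2), Zeb2 (4.32), Grhl2 (0.673) and Zeb1 (0.00983), with Snai2 and Twist2 at 0. Neighbours with reads did not overlap in this order. The order was the same in LM9, where Zeb1 was at 0 in replicates 2 and 3, with Snai1 at 127.6 ± 61.8 and Twist1 at 27.1 ± 8.56 CPM per kb (SD, n = 3). Without replicate 1 they were at 163 ± 1.64 and 31.99 ± 0.861 (SD, n = 2). In LM1 Nfib KO the order was Twist1 (65.8), Zeb1 (13.0), Snai1 (8.09), Snai2 (5.21) and Zeb2 (4.35), none overlapping the next. Elf3 (0.155), Twist2 (0.117) and Grhl2 (0.0982) followed, and each overlapped the next. The first 5 places were the same in LM9 Nfib KO, where Grhl2 (0.116) preceded Twist2 (0.101) and Elf3 (0.0873). Elf3 overlapped both Twist2 and Grhl2 there, with its highest library at 0.1097 and the lowest Grhl2 library at 0.1086. Elf3 thus moved from the third place in the lines to one of the last 3.

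The 2 lines were also compared with each other. With all 3 LM9 libraries no member passed (limma-voom), and 0.0055% of genes did, which is 1 gene, Anpep, named after its value was seen. At an unadjusted p under 0.05, 8661 genes differed. Without LM9 replicate 1 the picture changed: 32.4% of genes were higher and 33.4% lower in LM9, and 5 of 8 members passed, 3 higher and 2 lower. Snai1 went from 88.7 ± 9.10 CPM in LM1 (SD, n = 3) to 265 ± 2.66 CPM in LM9 replicates 2 and 3 (SD, n = 2), or by 1.58 on the log2 scale (SE 0.06; adjusted p = 1.07e-12 by limma-voom). With replicate 1 it was 1.07 (SE 0.33; limma-voom adjusted p = 0.0543). Twist1 was higher by 0.89 (SE 0.06; limma-voom adjusted p = 2.61e-09) without that library and by 0.58 (limma-voom adjusted p = 0.0556) with it.

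Zeb2 went against these. Its level in LM9 was lower, with a difference of -0.64 on the log2 scale (SE 0.06; adjusted p = 2.78e-08 by limma-voom) without replicate 1 and -0.44 (limma-voom adjusted p = 0.0543) with it. Snai1 and Twist1 therefore went the same way between the lines, where Zeb2 went the other way, whereas between line and KO label Snai1 and Twist1 went opposite ways. The KO comparison in LM9 shares the LM9 libraries with this one. Zeb1 also passed without replicate 1 (limma-voom adjusted p = 0.00343), but on 9 counts in LM1 against 0 in the 2 LM9 libraries, so no fold is given.

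The epithelial regulators had small differences between the lines. Elf3 was higher in LM9 by 0.16 (SE 0.06; limma-voom adjusted p = 0.0331) without replicate 1, and by 0.15 (95% interval -0.02 to 0.32; limma-voom adjusted p = 0.151) with it. Grhl2 differed by 0.15 (95% interval -0.06 to 0.36; limma-voom adjusted p = 0.236), and without replicate 1 by 0.15 (limma-voom adjusted p = 0.199). In both genes all 3 LM9 libraries, replicate 1 included, lay above all 3 LM1 libraries (exact permutation p = 0.1, two-sided, the smallest that 3 against 3 allows), as did 8.42% of all genes tested, and neither gene passed with all libraries. The ratio of Snai1 to Zeb2 per kb was 10.8 to 14.8 in LM1, 13.5 in LM9 replicate 1, and 62.9 and 54.9 in LM9 replicates 2 and 3.

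Between the libraries labelled LM9 Nfib KO and LM1 Nfib KO no member passed, and 0% of genes passed (0 by limma-voom, edgeR and DESeq2; 178 genes at an unadjusted p under 0.05). For Zeb1 the log2 difference was 0.02 (95% interval -0.18 to 0.22), for Zeb2 0.03 (-0.25 to 0.31) and for Snai2 0.06 (-0.13 to 0.25). For Twist1 it was -0.04 (-0.41 to 0.33), for Twist2 -0.17 (-0.67 to 0.32), for Snai1 -0.10 (-1.08 to 0.87) and for Grhl2 0.23 (-0.12 to 0.58). Elf3 had the widest gap, -0.79 (-1.40 to -0.19; limma-voom adjusted p = 1), on 40 counts in LM1 Nfib KO and 23 in LM9 Nfib KO in all. The interval of each of these differences shows what sizes these libraries allow, and for Snai1 and Elf3 it reaches past a log2 difference of 1.

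An interaction term tested whether the KO change of LM9 differed from that of LM1. It equals the difference between the KO pools minus the difference between the lines, and so adds no separate comparison. Snai1, Twist1 and Zeb2 had small differences between the KO pools (-0.10, -0.04 and 0.03). For these genes the term largely restates the comparison of the lines. With all libraries no member passed and 0% of genes did (limma-voom; 1 gene by edgeR, 78 by DESeq2, and 4495 at an unadjusted p under 0.05). Without LM9 replicate 1, 57.2% of genes passed, and among them were 5 members. The difference (LM9 minus LM1) was -1.69 for Snai1, -0.93 for Twist1, 0.67 for Zeb2 and -0.95 for Elf3, and Zeb1 passed on the few counts given above. The Elf3 value came mostly from the KO pools, with a log2 difference of -0.79 between them, on 40 and 23 counts in all. With all libraries the values were -1.17 (SE 0.55) for Snai1, -0.62 (SE 0.26) for Twist1, 0.46 (SE 0.18) for Zeb2 and -0.94 (SE 0.29) for Elf3 (limma-voom adjusted p = 0.204, 0.202, 0.202 and 0.202).

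Other genes of the same programme were taken from lists and tested in the same fit. The counts of each list are to be read against the shares of all genes given above, 43.1% higher and 38.1% lower in LM1 and 44.3% and 38% in LM9, and without LM9 replicate 1 against that fit's own shares, 46.4% and 42.1% in LM1 and 47.7% and 41.2% in LM9. More genes were called in that fit in LM1 too, which loses no library. Genes near 0 in the lines or under the KO label entered the test through the group where they are high. No listed gene that passed changed direction when LM9 replicate 1 was left out. Among 12 other EMT-linked transcription factors in the files, 4 were higher and 7 lower in LM1 Nfib KO, with a median log2 fold change of -0.88 against 0.08 over all genes. In LM9 Nfib KO 5 were higher and 5 lower, with a median of -0.07 against 0.13. When LM9 replicate 1 was left out the counts were 4 and 8 in LM1 and 7 and 4 in LM9, where the median became 0.44 against 0.16 over all genes. Prrx1 and Prrx2, homeobox factors of mesenchyme, rose most: Prrx1 from 0.0684 CPM in LM1 and 0 in LM9 to 170 and 172 CPM, and Prrx2 from 0.0445 and 0 to 48.4 and 47.0 CPM. Against the floor in LM9, Prrx1 was at least 4590-fold and Prrx2 at least 1251-fold higher. Sox4, an SRY-box factor, fell, with log2 changes of -3.65 in LM1 and -2.24 in LM9 (limma-voom adjusted p = 1.32e-05 and 0.000716). LM9 replicate 1 had 386.5 CPM of Sox4, and replicates 2 and 3 had 89.2 and 93.8 CPM. Without replicate 1 the log2 change of Sox4 in LM9 came to -1.54, with an SE of 0.06 (adjusted p = 2.57e-13 by limma-voom). The forkhead factor Foxc1 fell too, with -2.62 and -2.47 (limma-voom adjusted p = 5.43e-09 and 1.04e-08).

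Of 12 other epithelial regulators in the files, 8 were lower and 3 higher in each line, with medians of -4.17 in LM1 and -2.73 in LM9. On leaving out that library they were 8 and 4 in LM1 and 8 and 3 in LM9. Ehf, an ETS factor related to Elf3, was at 219 and 194 CPM in the lines and 0.0601 and 0.151 CPM under the KO label. The grainyhead genes split. While Grhl2 fell, Grhl3 rose from 0.0461 and 0.276 CPM in LM1 and LM9 to 59.3 and 59.9 CPM, and Grhl1 from 0.181 and 0.324 to 3.75 and 4.03 CPM. Both had few reads in the lines and were tested through the libraries labelled KO. Grhl3 was at 0.0337, 0.242 and 0.551 CPM in the LM9 libraries, and its fitted log2 change there was 8.30, or 7.27 without replicate 1. Of the grainyhead factors, GRHL1 and GRHL3 are known above all from the epidermis.

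The TWIST dimer partners and ID inhibitors went both ways. Of 7 dimer partners and inhibitors in the files, 2 were higher and 1 lower in LM1 Nfib KO, and 3 higher and 4 lower in LM9 Nfib KO, with medians of 0.08 and -0.18. With 2 LM9 libraries (replicates 2 and 3) the counts were 3 and 2 in LM1 and again 3 and 4 in LM9. Tcf12, which encodes the E protein HEB, a dimer partner of TWIST1, rose by 0.47 on the log2 scale (SE 0.08) in LM1 and 0.38 (SE 0.08) in LM9. Id2, an inhibitor that binds E proteins without contacting DNA, rose by 2.53 (SE 0.19) and 1.98 (SE 0.18). Id4, of the same family, went down from 2.60 and 2.89 CPM to 0.00839 and 0.0168 CPM. Tcf12 and Id2 passed in both lines (limma-voom adjusted p of 0.00112 or less). The same inhibitor family thus had members in both directions.

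Of 16 cofactors and stability regulators of SNAIL and ZEB, 4 were higher and 7 lower in LM1 Nfib KO and 6 higher and 7 lower in LM9 Nfib KO, with medians of -0.24 and -0.06. These counts lie near or under the shares of all genes and say nothing particular about the list. With LM9 replicates 2 and 3 alone, 6 were higher and 9 lower in LM1 and 8 higher and 8 lower in LM9, where 47.7% of all genes were higher and 41.2% lower. Ctbp1, the corepressor that ZEB proteins recruit, rose by 2.19 (SE 0.10) and 2.49 (SE 0.11). The deacetylase gene Hdac1 rose by 0.63 (SE 0.07) and 0.71 (SE 0.07). Sin3a and Rcor1, which encode scaffolds of deacetylase complexes, fell, with log2 changes of -1.45 and -1.28 in LM1 and -1.50 and -1.26 in LM9. These 4 genes passed in both lines (limma-voom adjusted p of 4.7e-06 or less).

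Targets of the factors were looked at last. Of 21 epithelial junction and surface genes in the files, 19 were lower and 2 higher in each line, with medians of -6.61 in LM1 and -7.64 in LM9. Leaving out LM9 replicate 1 gave the same counts. The list holds Krt8, Krt18, Epcam and Cdh1, which are also among the mammary epithelial markers above. The simple-epithelial keratin gene Krt18 had 480 ± 17.5 CPM in LM1 and 657 ± 145 CPM in LM9 but 0.0436 and 0.00811 CPM under the KO label (SD, n = 3). Cldn3, a tight-junction claudin, was at 34.1 and 97.5 CPM in the lines and had no counts under the KO label, at least 1305-fold and 3697-fold lower. Its LM9 libraries were at 34.7, 135.5 and 122 CPM. Among those that were higher, Dsp, the desmosome protein desmoplakin, rose by a log2 fold change of 2.63 (SE 0.20) in LM1 and 2.04 (SE 0.19) in LM9 (limma-voom adjusted p of 1.15e-06 or less).

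The mesenchymal genes went both ways, as genes at large did. Of 13 tested, 7 were higher and 4 lower in LM1 Nfib KO, and 8 higher and 3 lower in LM9 Nfib KO, with medians of 0.57 and 0.87. Counts this near the shares of all genes say nothing particular about a list of 13. Without LM9 replicate 1 the counts were 7 and 5 in LM1 and 9 and 4 in LM9, where the median became 1.86, against 0.16 over all genes in that fit. Ncam1, a neural adhesion molecule, had no counts in the lines and was at 24.2 and 24.8 CPM under the KO label, at least 714-fold and 661-fold higher. Tnc, the matrix protein tenascin C, went from 0.102 and 0.0622 CPM to 9.94 and 10 CPM. In contrast, Fn1, the fibronectin gene often used as a mesenchymal marker, reached 11706 ± 632 CPM in LM1 and 10290 ± 1678 CPM in LM9, against 195 ± 2.61 and 193 ± 5.69 CPM under the KO label (SD, n = 3). The receptor tyrosine kinase gene Axl fell slightly, with log2 changes of -0.43 in LM1 and -0.40 in LM9 (limma-voom adjusted p = 5.21e-06 and 8.22e-06). Fn1 therefore fell with Snai1, as Elf3 and Grhl2 did. With library totals in place of TMM factors, 1 mesenchymal gene, Fn1, was called lower in LM9. The Axl call in LM9 thus depends on the scaling.

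**Figure D4:**
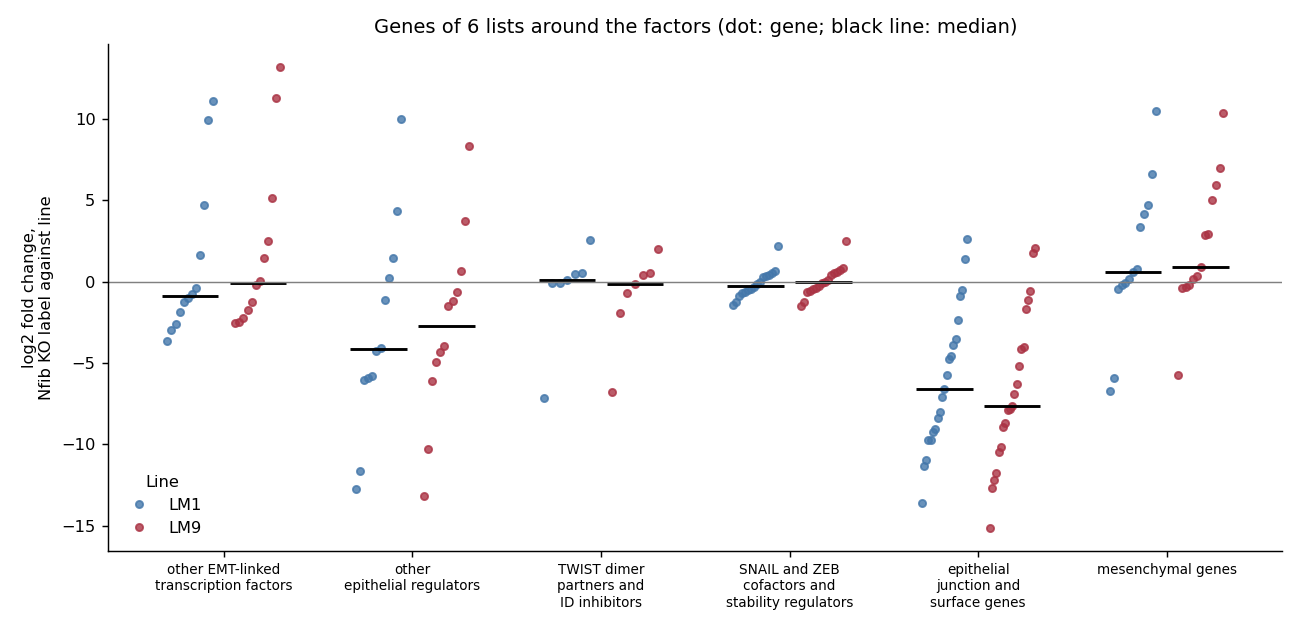
Fitted log2 fold change (Nfib KO label against line) of each tested gene in 6 lists, with LM1 in blue and LM9 in red; black lines are medians. The junction and surface genes lie mostly far under 0 (medians of -6.61 and -7.64), while the medians of the cofactors and of the dimer partners lie near 0, over genes on both sides of it; the fitted values of genes without reads in 1 group depend on the offset and are no measured folds.

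For the 7 members that reached 1 CPM in a group, the 2 protein-coding genes with the most similar pattern were sought among 12066 candidates, by the root-mean-square distance of gene-centred log2 CPM over the 12 libraries. This is a description without a test, since the libraries share groups and LM9 replicate 1 weighs on every pattern. Nearest to Snai1 were Spns2, a sphingosine-1-phosphate transporter (distance 0.108), and Ddit4, a stress-induced inhibitor of mTORC1 (0.111). Ddit4 was at 305 and 798 CPM in LM1 and LM9 and at 51.5 and 48.6 CPM under the KO label. Nearest to Twist1 were Rcc1, the exchange factor of RAN (0.059), and Nabp2, a single-stranded DNA-binding protein (0.067).

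Snai2 was followed by Thrb, a thyroid hormone receptor (0.059), and the protocadherin Pcdh19 (0.068), both without reads in the lines and at 10.5 to 10.8 CPM under the KO label. Zeb1 was nearest to Col6a3, a collagen VI chain (0.427), and Igfbp2, an insulin-like growth factor binding protein (0.495). Zeb2 was nearest to Nfatc3 (0.040) and Top2b (0.041), genes with small changes like its own. Elf3 was nearest to B3gnt3 (0.318) and Capn5 (0.355), and Grhl2 to Terf1 (0.115) and Jak2 (0.117). Without LM9 replicate 1 the first 2 genes stayed the same for Snai1, Snai2, Twist1 and Elf3. For Zeb1, Zeb2 and Grhl2 1 of the 2 was replaced, by Prrx1, Eml4 and Serinc3.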

How the data were processed

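RNA-seq gene counts of 12 tumoursphere libraries were used. Per the labels and the study's methods, the authors prepared stranded poly-A libraries, aligned single-end reads to mm10 with STAR and counted 5' read ends over the exon union of each gene with QuasR. Each library had 1 deposited file of raw whole-number counts. Tool versions, the annotation and the strand setting of the counting are not given in the sources used here. Names and coordinates came from GENCODE M21 (GRCm38, the same assembly as mm10), and 18268 of 18278 identifiers matched. No gene had fewer than 8 counts in its third-highest library, so genes with few reads may have been filtered by the authors.

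Counts were tested with limma-voom, the framework of the study's methods (R 4.3.3, limma 3.58.1, edgeR 4.0.16 for TMM factors and filterByExpr, which kept 18176 genes; DESeq2 1.42.0 for an alternative). The model had 1 mean per group over all 12 libraries. Tests were two-sided, with Benjamini-Hochberg adjustment over all genes in each of 6 contrasts and a threshold of 0.05. Contrasts between lines were LM9 minus LM1. TMM factors were 0.946 to 0.952 in LM1, 0.822 to 0.949 in LM9 and 1.10 to 1.11 under the KO label. CPM values are TMM-scaled; folds against a group at 0 used a floor of 3 counts over its 3 libraries, 0.0339 CPM in LM1, 0.0376 in LM9, 0.0259 in LM1 Nfib KO and 0.0254 in LM9 Nfib KO, and floors and intervals cover counting error only. Log2 values used the voom offset of 0.5. No files held identical counts; the closest pair of libraries differed by a mean chi-square of 1.44 per gene. The code was tested on simulated data.

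Members and lists were chosen with earlier results of these data known. Besides the members and Nfib, the text names, for each list, the 2 largest averaged rises and falls among genes past the threshold with 1 sign in both lines and at least 1 CPM in a group, and the 2 genes nearest in pattern to each member; markers and Anpep were named besides. Some genes that the rule names are not reported here. Alternatives were edgeR's quasi-likelihood test, DESeq2, median-ratio factors, library totals, no filter, a mean of at least 5 CPM, a replicate block, sample quality weights, only the groups compared, and leaving out each library in turn.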

Additional observations from a re-analysis of the deposited data

How the results depend on the processing

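Between the KO label and its line, and between the 2 KO pools, no alternative moved the number of members called by over 1.5 times. Between LM9 and LM1 no member passed in the main test, but 3 did with DESeq2 (2 higher, 1 lower), 3 with library totals (1 higher, 2 lower), 4 with a mean of at least 5 CPM (2 higher, 2 lower) and 5 with sample quality weights (3 higher, 2 lower). Leaving out each library in turn gave 0 to 5 members (0 to 3 higher, 0 to 2 lower), the 5 coming without LM9 replicate 1. For the difference of the KO change between lines, 5 passed with sample quality weights (2 higher, 3 lower), and 0 to 5 when libraries were left out (0 to 2 higher, 0 to 3 lower), again 5 without LM9 replicate 1. Over all genes, 1 differed between the lines by limma-voom and 6159 by DESeq2. Of 899 log2 fold changes of members under alternatives, 861 kept their direction and side of the threshold, 30 passed only under the alternative, 3 no longer passed and 5 changed sign, compared before rounding. The sign changes were of uncalled values near 0. One was Zeb2 in LM1 with sample quality weights (-0.0041), and the others came on leaving out 1 library: Zeb2 in LM1 (-0.04 to 0.05), and Snai2 (-0.003 to 0.14), Twist1 (-0.08 to 0.02) and Twist2 (-0.34 to 0.01) between the KO pools. The cause was not tested. A mean of at least 5 CPM left Twist2 and Grhl2 untested, and a fit of the lines alone left Zeb1, Snai2 and Twist2 untested. Library totals moved the median of all genes from 0.08 to 0.31 in LM1 and from 0.13 to 0.49 in LM9; no called member changed direction, and of the listed genes Tcf3, Btrc and Mmp3 did. With library totals the cofactors of SNAIL and ZEB in LM9 went to 8 higher and 4 lower, the dimer partners to 3 and 2, and the mesenchymal genes to 9 and 1. Replicate numbers did not pair the libraries, since deviations of same-numbered libraries correlated at -0.0587 to 0.0250 over 12 pairs. A replicate block left 7 members called in LM1, 8 in LM9 and 0 between the lines. Depth limits Zeb1 in the lines, Twist2 throughout and Elf3 under the KO label, where libraries held at most 18 counts.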
